A study of Homo sapiens with 6 samples.

Results

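The 10 genes described here encode parts of the transforming growth factor-beta (TGF-beta) and bone morphogenetic protein (BMP) signaling pathways: the ligands TGFB1, TGFB2 and BMP4, the receptors TGFBR1 and TGFBR2, the signal transducers SMAD2 and SMAD3, the inhibitors SMAD7 and SKIL, and the target gene ID1. They were chosen by symbol, as the rows whose Ensembl identifier carries that symbol in GENCODE release 29. All 10 were found among the 19746 genes of the expression tables, and all 10 passed the limit on low values (a mean of at least 0.5 over the 6 libraries), as did 12756 genes in all. Their levels were compared between colorectal cancer cells with and without knockdown of PCYT2, which encodes the enzyme that makes CDP-ethanolamine for phosphatidylethanolamine synthesis.

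RNA-Seq libraries were made from SW480, an established human colorectal cancer cell line, with 2 libraries for each of 3 groups: the control shNT, shPcyt2-1 and shPcyt2-2. Per the methods, hairpins against PCYT2 were carried by the lentiviral vector pLKO.1 and infected cells were selected with puromycin, and the corresponding steps for shNT are not given separately. Each group held 1 hairpin, so the effect of a hairpin and the properties of the cell population that carries it cannot be told apart. The labels do not say that the libraries of a group came from separate cultures, so p-values measure only the spread between these libraries, which may be technical.

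TGF-beta ligands bind TGFBR2, which recruits and phosphorylates TGFBR1, and TGFBR1 in turn phosphorylates SMAD2 and SMAD3. BMP ligands use other receptors of the same family and act through SMAD1, SMAD5 and SMAD9. Both branches share SMAD4 as the partner that carries the phosphorylated SMADs onto DNA, and in intestinal epithelium TGF-beta is known as a brake on growth whose receptors and SMADs are often lost in colorectal cancer. SW480 is known as a line that lacks SMAD4 protein.

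Levels are given in FPKM (sequenced fragments of a gene scaled to its length and to the size of the library), and changes as log2 fold changes on the log2(FPKM + 1) scale, which understates the change of genes with low levels. A gene is called changed where limma, fitted over all 12756 tested genes, gave a Benjamini-Hochberg adjusted p under 0.05. The number of reads behind each value is not given by FPKM, so no counting interval was computed. In bulk samples, fewer cells with a transcript and less of that transcript per cell cannot be told apart.

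The target of the hairpins, PCYT2, was at 11.6 and 13.8 FPKM with shNT, 7.11 and 7.36 FPKM with shPcyt2-1, and 6.71 and 6.18 FPKM with shPcyt2-2. All of the 4 knockdown libraries were lower than either control library, and the log2 fold change was -0.73 for shPcyt2-1 (adjusted p = 0.00204 in limma) and -0.88 for shPcyt2-2 (adjusted p = 0.00261 in limma). From shPcyt2-1 to shPcyt2-2 the change was -0.15 (adjusted p = 0.309 in limma), with a 95% confidence interval of -0.37 to 0.080. The libraries carried the markers of an epithelial line: of 8 intestinal epithelial markers, all were listed and 7 were tested, with the keratin KRT8 the most abundant at a mean of 3377 FPKM. KRT20, a keratin of differentiated colonocytes, was at or near 0 in every library, with at most 0.0950 FPKM. The summed level of the 8 markers was 7195 and 7677 FPKM with shNT, 7355 and 7407 FPKM with shPcyt2-1, and 5518 and 5746 FPKM with shPcyt2-2. Most of that sum was KRT8 and KRT18, and both fell with shPcyt2-2, KRT8 by 0.41 (adjusted p = 0.00483 in limma) and KRT18 by 0.45 (adjusted p = 0.00318 in limma) on the log2 scale. CDX2, a transcription factor of intestinal identity, fell by 0.65 with shPcyt2-1 (adjusted p = 0.00138 in limma) and was at -0.055 with shPcyt2-2 (adjusted p = 0.677 in limma). Other epithelial markers went the other way with shPcyt2-2. CDH17 rose there (0.50, adjusted p = 0.0212 in limma), from 1.00 and 0.968 FPKM with shNT to 1.89 and 1.72 FPKM. CDH1 (0.19), VIL1 (0.14) and EPCAM (0.11) were higher with shPcyt2-2 without passing. With shPcyt2-1, CDH17, CDH1, VIL1 and EPCAM did not pass.

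Promoter sequence is shown for the 4 genes whose level changed with a hairpin, TGFB1, BMP4, TGFBR2 and ID1, because these are the members whose transcript levels the results turn on. Each run holds the 250 bases before the farthest upstream transcript start of that gene in RefSeq (assembly GRCh38.p14), written 5′ to 3′ in the direction of transcription. The positions are chr19:41353923-41354172 (minus strand) for TGFB1, chr14:53955051-53955300 (minus strand) for BMP4, chr3:30606106-30606355 (plus strand) for TGFBR2 and chr20:31605039-31605288 (plus strand) for ID1. The BMP4 window lies inside the span of BMP4 in GENCODE (53949736 to 53958761), which begins farther upstream. Capitals mark matches to 4 short motifs searched on both strands: CAGAC or GTCTG, the SMAD box; GGCGCC, a GC-rich SMAD box that is its own reverse complement; GGGCGG or CCGCCC, the GC box; and TGACTCA or TGAGTCA, the AP-1 site.
TGFB1: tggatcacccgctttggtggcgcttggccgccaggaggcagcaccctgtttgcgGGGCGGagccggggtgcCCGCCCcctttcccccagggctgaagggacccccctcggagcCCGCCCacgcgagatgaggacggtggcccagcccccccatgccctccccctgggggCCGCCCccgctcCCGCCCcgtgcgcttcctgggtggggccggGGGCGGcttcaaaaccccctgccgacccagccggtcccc
BMP4: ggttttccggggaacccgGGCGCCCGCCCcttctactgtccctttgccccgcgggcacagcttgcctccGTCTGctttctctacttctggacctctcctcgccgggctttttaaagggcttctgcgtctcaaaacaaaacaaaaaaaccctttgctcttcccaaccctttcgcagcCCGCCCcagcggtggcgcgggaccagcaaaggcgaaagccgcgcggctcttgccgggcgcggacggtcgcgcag
TGFBR2: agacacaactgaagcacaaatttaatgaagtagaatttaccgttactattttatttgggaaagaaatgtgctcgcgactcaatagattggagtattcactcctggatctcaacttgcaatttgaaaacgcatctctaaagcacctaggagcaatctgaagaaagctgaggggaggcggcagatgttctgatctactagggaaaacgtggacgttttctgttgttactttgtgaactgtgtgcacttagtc
ID1: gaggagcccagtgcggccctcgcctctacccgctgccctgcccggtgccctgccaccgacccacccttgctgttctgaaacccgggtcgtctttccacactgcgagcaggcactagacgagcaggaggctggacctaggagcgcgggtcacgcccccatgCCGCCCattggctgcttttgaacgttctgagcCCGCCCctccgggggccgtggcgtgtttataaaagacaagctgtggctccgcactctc

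The TGFB1 window held 6 GC boxes and the ID1 window 2. BMP4 was the only 1 of these 4 windows with a SMAD box, at position -181 from the start, and it also held a GC-rich SMAD box at -232, which shares 1 base with the GC box at -227. These letters were not in the TGFBR2 window, which had a GC content of 40.8%, against 76.8% for TGFB1, 66.0% for ID1 and 63.6% for BMP4. Such motifs are common: over the 35116 RefSeq windows of the same length, the SMAD box was in 38.0%, the GC-rich SMAD box in 16.4%, the GC box in 42.6% and the AP-1 site in 4.20%. A match describes the letters and is no evidence of binding. RefSeq lists 2 starts for TGFBR2 and 3 for BMP4, and which start was used in these cells is not given by values per gene.

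The 10 genes differed widely in level within the control cells. In shNT the order per length was BMP4, TGFB1, ID1, TGFBR2, SMAD3, SKIL, SMAD7, TGFBR1, SMAD2 and TGFB2, from a mean of 132 ± 6.44 FPKM (SD, n = 2) for BMP4 to 0.824 ± 0.138 FPKM (SD, n = 2) for TGFB2. The libraries of each neighboring pair were apart except for SMAD7 and TGFBR1, whose values overlapped. With shPcyt2-1 the same order held except that TGFBR1 stood above SMAD7, and the libraries of all neighboring pairs were apart. With shPcyt2-2, TGFBR1 and SMAD7 overlapped again, and so did BMP4 and TGFB1. The panels of FPKM by library show these levels, with SMAD4 and PCYT2 added.

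**Figure D1:**
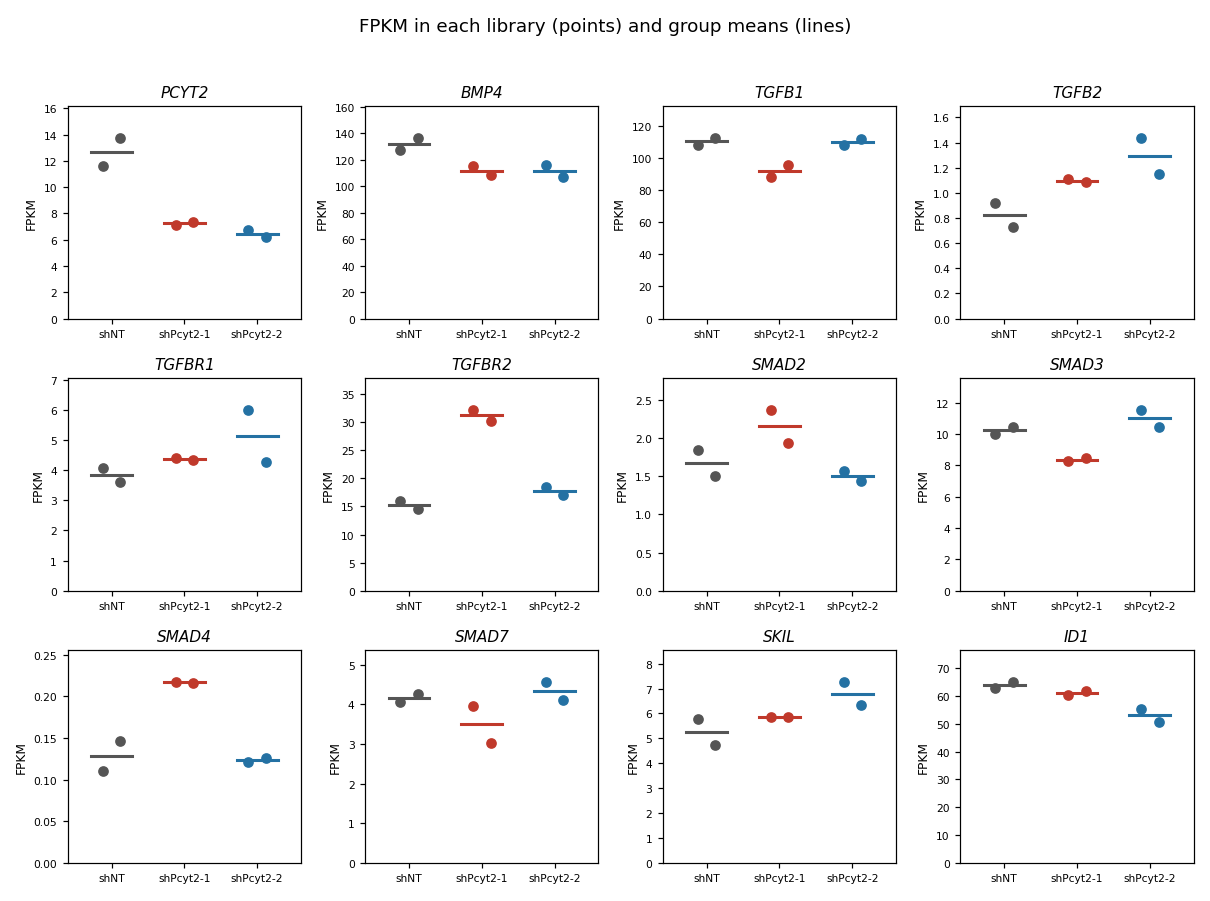
FPKM (vertical axes, each from 0) of PCYT2, the 10 member genes and SMAD4 in the 6 libraries, by hairpin; points are libraries and lines are means of 2 libraries. TGFBR2 stands at 30.3 and 32.2 FPKM in the shPcyt2-1 libraries and at no more than 18.5 FPKM in the other 4, and SMAD4 is at or below 0.217 FPKM throughout.

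With shPcyt2-1, 1 member rose (TGFBR2) and 2 fell (BMP4 and TGFB1), so 3 of 10 were called, against 26.7% of all tested genes (16.5% higher and 10.1% lower). With shPcyt2-2, 2 of 10 were called, both lower (BMP4 and ID1), against 12.4% of all tested genes (7.69% higher and 4.74% lower). Between the hairpins 3 of 10 differed, with SMAD3 and TGFB1 higher and TGFBR2 lower in shPcyt2-2, against 27.1% of all tested genes (12.9% higher and 14.2% lower). These shares are near those of all genes and say nothing particular about the list. The median log2 fold change of the members was 0.036 with shPcyt2-1 and 0.070 with shPcyt2-2, and over all tested genes it was 0.067 and 0.044. Both comparisons use the same 2 shNT libraries.

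**Figure D2:**
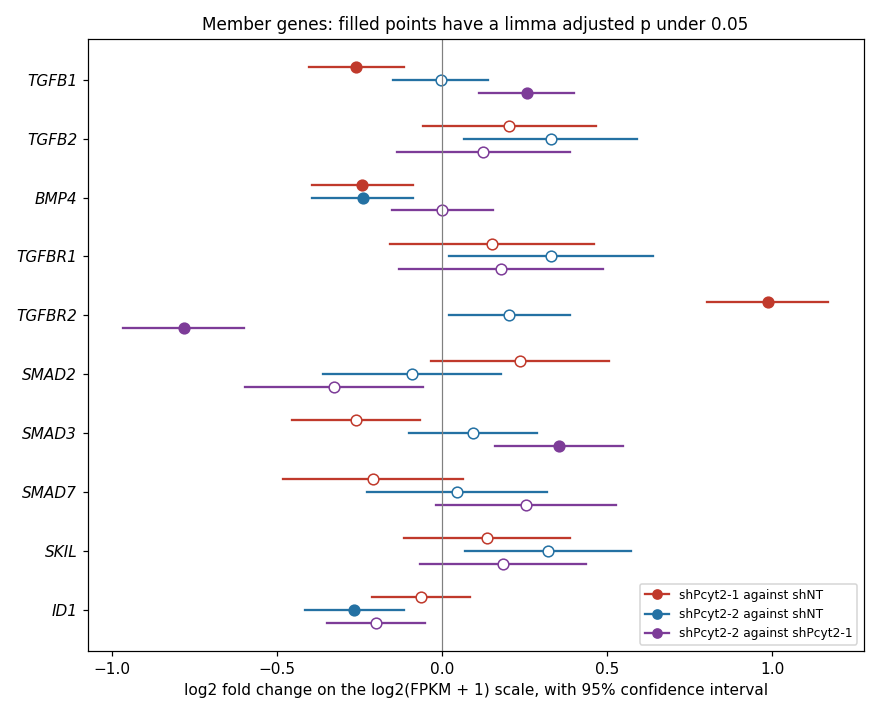
Log2 fold change on the log2(FPKM + 1) scale with its 95% confidence interval (horizontal axis) for the 10 member genes (rows) in the 3 comparisons, where filled points have an adjusted p under 0.05 in limma. TGFBR2 with shPcyt2-1 is the point farthest from 0, at 0.99, while the called changes of BMP4, TGFB1 and ID1 against shNT lie between -0.27 and -0.24.

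Among the ligands, BMP4 was lower in all 4 knockdown libraries and TGFB1 in the 2 with shPcyt2-1. BMP4 (ENSG00000125378, chromosome 14, 53949736 to 53958761), all positions on GRCh38, encodes a secreted BMP that is expressed in colorectal cancer cells. It was at 128 and 137 FPKM with shNT, 115 and 108 FPKM with shPcyt2-1, and 116 and 107 FPKM with shPcyt2-2. Each of the 4 knockdown libraries was lower than either shNT library, as was the case for 9.48% of the tested genes. The log2 fold change was -0.24 (standard error 0.0679, adjusted p = 0.0303 in limma) with shPcyt2-1 and -0.24 (standard error 0.0679, adjusted p = 0.0499 in limma) with shPcyt2-2, with 0.00073 from one hairpin to the other and a 95% confidence interval of -0.15 to 0.15. The call with shPcyt2-1 was lost without shNT replicate 2 (0.114), shPcyt2-1 replicate 1 (0.0803) or shPcyt2-1 replicate 2 (0.175), all adjusted p in limma. With shPcyt2-2 it held in 4 of 16 alternatives, and of the 6 fits that left out a library only the one without shNT replicate 1 kept it, the others giving an adjusted p of 0.0669 to 0.185 in limma.

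TGFB1 (ENSG00000105329, chromosome 19, 41301587 to 41353911) encodes the TGF-beta ligand most studied in epithelial cells. Its level was 108 and 112 FPKM with shNT, 88.01 and 95.7 FPKM with shPcyt2-1, and 108 and 112 FPKM with shPcyt2-2. Both shPcyt2-1 libraries were below the other 4, while those of shPcyt2-2 lay within the range of shNT. The log2 fold change was -0.26 with shPcyt2-1 (standard error 0.0638, adjusted p = 0.0183 in limma), -0.0033 with shPcyt2-2 (adjusted p = 0.979 in limma), which turned positive with quantile normalization (0.016) and once GC content and length were adjusted for (0.13), and 0.26 between the hairpins (adjusted p = 0.0173 in limma). The fall with shPcyt2-1 was -0.075 (adjusted p = 0.294 in limma) once GC content and length were adjusted for, and its call was lost without shNT replicate 2 (adjusted p = 0.0641 in limma) or shPcyt2-1 replicate 1 (adjusted p = 0.182 in limma). The difference between the hairpins was lost without shPcyt2-1 replicate 1, shPcyt2-2 replicate 1 or shPcyt2-2 replicate 2 (adjusted p of 0.0574 to 0.177 in limma). Exons of TGFB1 overlap those of HNRNPUL1 on the other strand, which was at a mean of 118 FPKM, and since no strand setting is stated for the counting, reads of the 2 genes cannot be told apart where they overlap.

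TGFB2 (ENSG00000092969, chromosome 1, 218346235 to 218444619) encodes another TGF-beta ligand and was the least abundant member, at 0.922 and 0.726 FPKM with shNT, 1.11 and 1.09 FPKM with shPcyt2-1, and 1.44 and 1.15 FPKM with shPcyt2-2. Each of the 4 knockdown libraries was higher than either shNT library, as for 20.7% of the tested genes. Its log2 fold change did not pass with shPcyt2-1 (0.20, adjusted p = 0.217 in limma) or shPcyt2-2 (0.33, adjusted p = 0.0924 in limma), and its 95% confidence interval with shPcyt2-2 was 0.067 to 0.59.

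Of the receptors, TGFBR2 differed most between groups of all 10 members. TGFBR2 (ENSG00000163513, chromosome 3, 30606502 to 30694142) encodes the type II receptor that binds TGF-beta. It was at 16.01 and 14.6 FPKM with shNT, 32.2 and 30.3 FPKM with shPcyt2-1, and 18.5 and 17.04 FPKM with shPcyt2-2. The shPcyt2-1 libraries stood apart from the other 4, and the shPcyt2-2 libraries were just above those of shNT without overlap. As group means, TGFBR2 was at 15.3 ± 1.02 FPKM with shNT, 31.2 ± 1.37 FPKM with shPcyt2-1 and 17.8 ± 1.01 FPKM with shPcyt2-2 (SD, n = 2 each). With shPcyt2-1 it was 2.04-fold of shNT, a log2 fold change of 0.99 (standard error 0.0813, 95% confidence interval 0.80 to 1.17, adjusted p = 0.000312 in limma). With shPcyt2-2 the log2 fold change was 0.20 (95% confidence interval 0.020 to 0.39, adjusted p = 0.126 in limma), and shPcyt2-2 stood apart from shPcyt2-1 by -0.78 (adjusted p = 0.000365 in limma). The rise with shPcyt2-1 and the difference between the hairpins were called under all 16 alternatives. Since TGFBR2 is also abundant in fibroblasts, their markers were examined: 6 of 8 were listed, COL1A2, PDGFRA and THY1 were at or near 0 in every library, and the summed level was 1.20 and 1.45 FPKM with shNT, 2.48 and 2.64 FPKM with shPcyt2-1, and 2.27 and 1.93 FPKM with shPcyt2-2. Most of that sum was LUM, which encodes the matrix proteoglycan lumican and which rose with shPcyt2-1 (0.81, adjusted p = 0.00193 in limma). PDGFRB went the other way with shPcyt2-1: it was at 0.364 and 0.507 FPKM with shNT, 0.225 and 0.309 FPKM with shPcyt2-1, and 0.795 and 0.739 FPKM with shPcyt2-2. COL3A1 and FAP were not listed, and the listed fibroblast markers other than LUM, PDGFRB included, were too low to test. Of the 5 leukocyte markers 4 were listed, CD68 being the most abundant at a mean of 19.5 FPKM, PTPRC was not listed, CD3E was at or near 0, and the sums overlapped between groups. The 3 endothelial markers summed to 0.581 and 0.610 FPKM with shNT, 0.693 and 0.769 FPKM with shPcyt2-1, and 0.688 and 0.513 FPKM with shPcyt2-2, with CDH5 the most abundant at a mean of 0.486 FPKM. The part of LUM or of these sums in the TGFBR2 result was not tested.

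The genes whose levels over the 6 libraries were most like those of TGFBR2 were SFT2D2 (Pearson's r = 0.9991 on log2(FPKM + 1)), GORASP2 (r = 0.9972), VDAC3 (r = 0.9970), CHEK1 (r = 0.9967) and TMEM14B (r = 0.9963). Since the libraries share groups, such values are common: 455 tested genes, 3.57%, had an r over 0.95. SFT2D2 was at a mean of 3.08 FPKM with shNT, 5.71 FPKM with shPcyt2-1 and 3.50 FPKM with shPcyt2-2.

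TGFBR1 (ENSG00000106799, chromosome 9, 99104038 to 99154192) encodes the type I receptor kinase that acts with TGFBR2. It was at 4.07 and 3.60 FPKM with shNT, 4.40 and 4.34 FPKM with shPcyt2-1, and 6.004 and 4.26 FPKM with shPcyt2-2. Each of the 4 knockdown libraries was higher than either shNT library, and shPcyt2-2 replicate 1 stood well above the rest. Neither hairpin passed, with log2 fold changes of 0.15 (adjusted p = 0.436 in limma) and 0.33 (adjusted p = 0.139 in limma). The value with shPcyt2-1 was 0.017 once GC content and length were adjusted for. The value with shPcyt2-2 ran from 0.12 without shPcyt2-2 replicate 1 to 0.54 without shPcyt2-2 replicate 2, where it passed (adjusted p = 0.0457 in limma). The difference between the hairpins, 0.18 (adjusted p = 0.367 in limma), was -0.028 without shPcyt2-2 replicate 1.

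Among the SMADs, no member was called with a single hairpin, and SMAD3 differed between hairpins. SMAD3 (ENSG00000166949, chromosome 15, 67063763 to 67195195), a receptor-activated SMAD that binds DNA, was at 10.01 and 10.5 FPKM with shNT, 8.26 and 8.50 FPKM with shPcyt2-1, and 11.6 and 10.5 FPKM with shPcyt2-2. Both shPcyt2-1 libraries lay below the other 4. Its log2 fold change was -0.26 with shPcyt2-1 (adjusted p = 0.0517 in limma), which passed in 7 of 16 alternatives, 0.094 with shPcyt2-2 (adjusted p = 0.488 in limma) and 0.35 between the hairpins (adjusted p = 0.0156 in limma). That difference was lost without shPcyt2-1 replicate 1, shPcyt2-1 replicate 2 or shPcyt2-2 replicate 1 (adjusted p of 0.0670 to 0.107 in limma). An antisense gene, AC087482.1, overlaps exons of SMAD3 in the annotation and is not listed in the tables.

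SMAD2 (ENSG00000175387, chromosome 18, 47808957 to 47931146), the other transducer of TGF-beta signals, was at 1.84 and 1.51 FPKM with shNT, 2.37 and 1.93 FPKM with shPcyt2-1, and 1.57 and 1.44 FPKM with shPcyt2-2. The shPcyt2-1 libraries were above both shNT libraries and those of shPcyt2-2 overlapped with shNT. No comparison passed, the log2 fold changes being 0.24 (adjusted p = 0.166 in limma), -0.091 (adjusted p = 0.640 in limma) and, between the hairpins, -0.33 (adjusted p = 0.0698 in limma). SMAD4, the shared partner, was at 0.111 and 0.146 FPKM with shNT, 0.217 and 0.216 FPKM with shPcyt2-1, and 0.121 and 0.126 FPKM with shPcyt2-2, below the limit for testing, so no fold or test is given.

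The members that inhibit the pathway, SMAD7 and SKIL, were not called. SMAD7 (ENSG00000101665, chromosome 18, 48919853 to 48952052), an inhibitory SMAD that blocks the type I receptor and is itself induced by TGF-beta, was at 4.06 and 4.27 FPKM with shNT, 3.97 and 3.03 FPKM with shPcyt2-1, and 4.56 and 4.12 FPKM with shPcyt2-2. Both shPcyt2-1 libraries were below shNT, the shPcyt2-2 libraries overlapped with it, and the log2 fold change was -0.21 with shPcyt2-1 (adjusted p = 0.223 in limma) and 0.046 with shPcyt2-2 (adjusted p = 0.827 in limma), which turned negative (-0.034) with quantile normalization. SKIL (ENSG00000136603, chromosome 3, 170357678 to 170396835), which encodes SnoN, a corepressor that holds SMAD complexes inactive, was at 5.79 and 4.73 FPKM with shNT, 5.86 and 5.84 FPKM with shPcyt2-1, and 7.26 and 6.34 FPKM with shPcyt2-2. The 4 knockdown libraries were all above both shNT libraries, with log2 fold changes of 0.14 (adjusted p = 0.387 in limma), which was -0.040 once GC content and length were adjusted for, and 0.32 (adjusted p = 0.0891 in limma), which was 0.085, adjusted p = 0.527 in limma, with the same adjustment and passed without shNT replicate 1 (0.44, adjusted p = 0.0463 in limma).

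ID1 (ENSG00000125968, chromosome 20, 31605283 to 31606515), a target of BMP signaling that encodes an inhibitor of helix-loop-helix transcription factors, was at 63.03 and 65.1 FPKM with shNT, 60.4 and 61.98 FPKM with shPcyt2-1, and 55.5 and 50.9 FPKM with shPcyt2-2. Each of the 4 knockdown libraries was lower than either shNT library, and those of shPcyt2-2 were lowest. ID1 fell with shPcyt2-2 (-0.27, standard error 0.0659, adjusted p = 0.0338 in limma), while the value with shPcyt2-1 was -0.065 (adjusted p = 0.490 in limma) and turned positive (0.061) once GC content and length were adjusted for. With that adjustment the value with shPcyt2-2 was -0.14 (adjusted p = 0.197 in limma), and the call held in 7 of 16 alternatives. Without any 1 library other than shNT replicate 1 it was lost, with an adjusted p of 0.0541 to 0.131 in limma. The difference between the hairpins was -0.20 (adjusted p = 0.0504 in limma).

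Taking the 4 knockdown libraries as 1 group against shNT, no member was called by limma, with an unadjusted p under 0.05 for 2 (BMP4 and TGFB2), against 0.00784% of all tested genes called and 16.7% with an unadjusted p under 0.05. BMP4 was lower by 0.24 on the log2 scale (adjusted p = 0.199 in limma) and TGFBR2 was at 0.60 (adjusted p = 0.303 in limma). This fit counts differences between the hairpins as spread, and it did not call the target PCYT2 either (-0.80, adjusted p = 0.115 in limma). In the fit with 3 groups, averaging the hairpins called 2 of 10, TGFBR2 higher and BMP4 lower, against 16.8% of all tested genes.

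The rest of the pathway was read from 9 lists with 102 other genes, of which 93 were listed in the tables, 25 were below the limit and 68 were tested. Of the 68, INHBA and TGFBR3 passed the limit only through the group in which they were high, so that their differences are given as values without a test, although the counts of called genes over the 68 include them. With shPcyt2-1, 17 rose and 13 fell, 44.1% of the 68 against 26.7% of all tested genes. With shPcyt2-2, 9 rose and 1 fell, 14.7% of the 68 against 12.4% of all tested genes. Median-ratio scaling of the libraries, which moved the median of all genes with shPcyt2-1 from 0.067 to -0.0019, gave 11 higher and 17 lower with shPcyt2-1 and 8 higher and 3 lower with shPcyt2-2. Between the hairpins 24 differed, 35.3% of the 68 against 27.1% of all tested genes, 18 of them higher in shPcyt2-2. The panels for 9 lists show each tested gene.

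**Figure D3:**
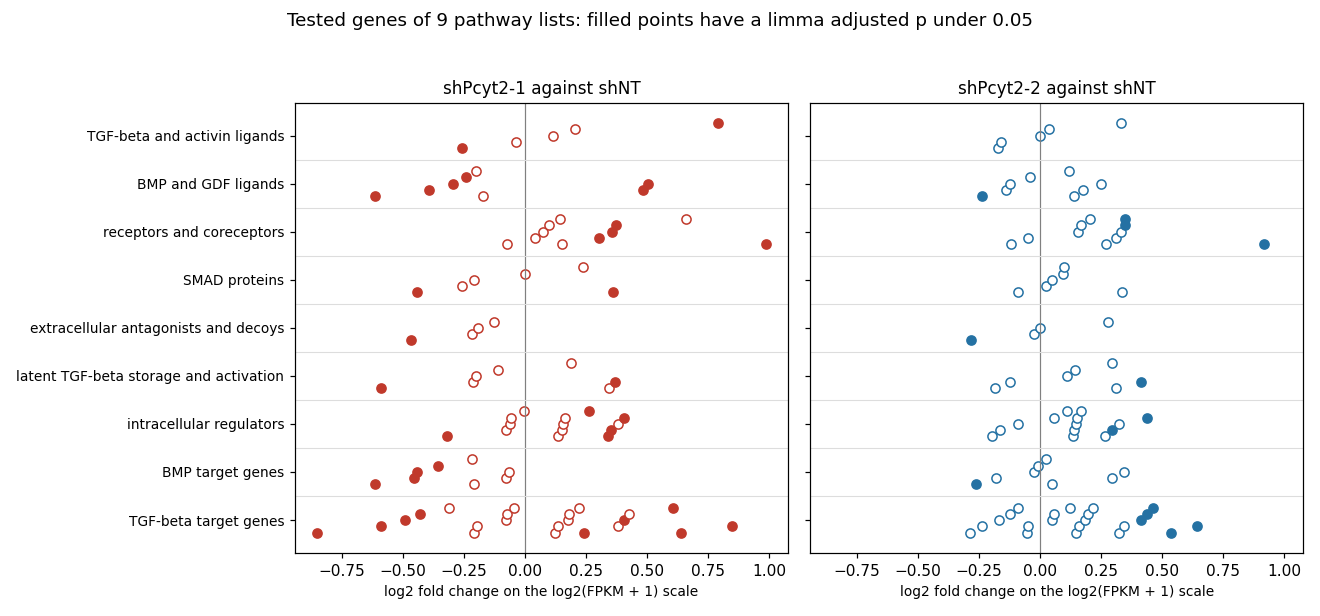
Log2 fold change on the log2(FPKM + 1) scale (horizontal axis) of the tested genes of 9 pathway lists, members included (rows; the vertical spread within a row only separates points), with shPcyt2-1 (left) and shPcyt2-2 (right). Filled points have an adjusted p under 0.05 in limma: in the BMP target row, 4 genes lie to the left with shPcyt2-1, and 1, ID1, with shPcyt2-2. INHBA (left) and TGFBR3 (right) are also drawn filled, although they passed the limit only through the group in which they were high.

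Of the 6 target genes of BMP signaling tested beside the members, 4 fell and 0 rose with shPcyt2-1, where 10.1% of all tested genes fell and 16.5% rose. Their median log2 fold change was -0.40, against 0.067 over all tested genes. With shPcyt2-2 none of the 6 was called by limma (2 with an unadjusted p under 0.05), where 12.4% of all tested genes were. Their median there was 0.0082, against 0.044 over all tested genes. With the members ID1 and SMAD7 added, neither called with shPcyt2-1, 4 of 8 were called there and the median was -0.29. MSX1, a homeobox repressor, was at 13.4 and 16.3 FPKM with shNT, 9.56 and 9.0 FPKM with shPcyt2-1, and 18.05 and 18.5 FPKM with shPcyt2-2, the shPcyt2-1 libraries lying below and the shPcyt2-2 libraries above both of shNT. It fell with shPcyt2-1 (-0.62, adjusted p = 0.00368 in limma), was at 0.29 with shPcyt2-2 (adjusted p = 0.0834 in limma) and differed between the hairpins by 0.91 (adjusted p = 0.000459 in limma). MSX2, a related homeobox gene, was at 33.4 and 37.4 FPKM with shNT, 24.6 and 26.5 FPKM with shPcyt2-1, and 35.1 and 35.3 FPKM with shPcyt2-2, so that only the shPcyt2-1 libraries were low. Its fall with shPcyt2-1 (-0.46, adjusted p = 0.00448 in limma) and that of MSX1 were called under all 16 alternatives. ID2, a relative of ID1, was at 5.77 and 6.81 FPKM with shNT, 4.27 and 5.13 FPKM with shPcyt2-1, and 8.05 and 8.42 FPKM with shPcyt2-2. SMAD6, an inhibitory SMAD of the BMP branch, was at 1.17 and 1.21 FPKM with shNT, 0.581 and 0.637 FPKM with shPcyt2-1, and 1.22 and 1.24 FPKM with shPcyt2-2. For both, the shPcyt2-1 libraries were below the other 4. ID2 fell by 0.36 with shPcyt2-1 (adjusted p = 0.0443 in limma) and differed between the hairpins by 0.70 (adjusted p = 0.00252 in limma). SMAD6 fell by 0.44 with shPcyt2-1 (adjusted p = 0.0147 in limma) and differed by 0.47 (adjusted p = 0.0102 in limma). The call of ID2 against shNT was lost without shNT replicate 2, shPcyt2-1 replicate 1, shPcyt2-2 replicate 1 or shPcyt2-2 replicate 2 (adjusted p of 0.0587 to 0.302 in limma), that of SMAD6 without shNT replicate 2 or either shPcyt2-1 library (adjusted p of 0.0569 to 0.106 in limma), and the SMAD6 difference without shPcyt2-1 replicate 1 (adjusted p = 0.0757 in limma).

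BMP ligands other than BMP4 went both ways with shPcyt2-1, where 2 of 7 tested rose (BMP2 and BMP5) and 3 fell (BMP6, BMP7 and BMP8A), against 16.5% and 10.1% of all tested genes. With shPcyt2-2 none of the 7 was called by limma, where 12.4% of all tested genes were, and 1 had an unadjusted p under 0.05. BMP6 was at 6.63 and 6.30 FPKM with shNT, 3.87 and 3.87 FPKM with shPcyt2-1, and 5.70 and 5.83 FPKM with shPcyt2-2, with the shPcyt2-1 libraries far below the rest, and fell by 0.62 (adjusted p = 0.00262 in limma), a call kept in all 16 alternatives. BMP2 was at 1.64 and 1.92 FPKM with shNT, 2.77 and 3.12 FPKM with shPcyt2-1, and 1.61 and 1.49 FPKM with shPcyt2-2, highest in the shPcyt2-1 libraries, and rose (0.51, adjusted p = 0.0114 in limma), a call lost without shNT replicate 1 or shPcyt2-1 replicate 2 (adjusted p of 0.0522 to 0.0760 in limma). BMP7, the most abundant of the 7, was at 30.9 and 34.8 FPKM with shNT, 25.9 and 27.2 FPKM with shPcyt2-1, and 32.5 and 31.1 FPKM with shPcyt2-2 and fell (-0.29, adjusted p = 0.0238 in limma), lost without shNT replicate 2 or either shPcyt2-1 library (adjusted p of 0.0629 to 0.153 in limma). BMP5 rose from low levels (0.48, adjusted p = 0.0164 in limma) and BMP8A fell (-0.39, adjusted p = 0.0466 in limma), and both calls were lost when some single library was left out, for BMP5 without shNT replicate 1 or either shPcyt2-1 library (adjusted p of 0.0534 to 0.0896 in limma) and for BMP8A without any 1 of the 6 (adjusted p of 0.0527 to 0.282 in limma). Once GC content and length were adjusted for, neither was called (BMP5 0.32, adjusted p = 0.106 in limma; BMP8A -0.14, adjusted p = 0.510 in limma). Between the hairpins BMP2 was lower in shPcyt2-2 (-0.63, adjusted p = 0.00367 in limma) and BMP6 higher (0.47, adjusted p = 0.00543 in limma).

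Of the activin and other TGF-beta family ligands, 3 were tested beside the members. INHBA, whose product forms activin A, was at 0.357 and 0.220 FPKM with shNT, 1.32 and 1.14 FPKM with shPcyt2-1, and 0.359 and 0.282 FPKM with shPcyt2-2, with both shPcyt2-1 libraries above the other 4. Its means with shNT and shPcyt2-2 were under the limit of 0.5 FPKM, and its log2 fold change with shPcyt2-1 was 0.79. INHBB, which forms activin B, was abundant at 85.2 and 89.2 FPKM with shNT, 85.1 and 84.6 FPKM with shPcyt2-1, and 80.02 and 74.5 FPKM with shPcyt2-2, with -0.038 for shPcyt2-1 (adjusted p = 0.676 in limma), or 0.034 once GC content and length were adjusted for, and -0.17 for shPcyt2-2 (adjusted p = 0.0972 in limma).

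Receptor genes beside the members rose or were not called: 3 of 9 rose with shPcyt2-1 and none fell, where 16.5% of all tested genes rose. Of the same 9, ACVR1B and BMPR1A rose with shPcyt2-2 and none fell, where 7.69% of all tested genes rose. TGFBR3, also among the 9, is left out of the rises with shPcyt2-2, since it passed the limit only through that group. It is given as values below. ACVR1B, a type I receptor for activin, was at 10.6 and 10.9 FPKM with shNT, 13.04 and 13.97 FPKM with shPcyt2-1, and 14.2 and 13.7 FPKM with shPcyt2-2, higher in each of the 4 knockdown libraries than in either shNT library. It rose with shPcyt2-1 (0.30, adjusted p = 0.0233 in limma), a call that median-ratio scaling ended (adjusted p = 0.0577 in limma), and shPcyt2-2 (0.35, adjusted p = 0.0254 in limma). BMPR1A, a type I receptor for BMPs, was at 5.05 and 5.38 FPKM with shNT, 6.87 and 7.20 FPKM with shPcyt2-1, and 7.26 and 6.56 FPKM with shPcyt2-2, again above shNT in 4 of 4, and rose with both (0.37, adjusted p = 0.0204 in limma; 0.35, adjusted p = 0.0434 in limma). Both BMPR1A calls ended once GC content and length were adjusted for (0.25, adjusted p = 0.0622 in limma, and 0.24, adjusted p = 0.108 in limma), and that with shPcyt2-2 also under quantile normalization. RGMB, a BMP coreceptor, was at 5.09 and 4.88 FPKM with shNT, 6.20 and 7.14 FPKM with shPcyt2-1, and 6.27 and 6.13 FPKM with shPcyt2-2, and rose with shPcyt2-1 (0.36, adjusted p = 0.0273 in limma), a call that ended with quantile normalization and with median-ratio scaling (adjusted p = 0.0531 in limma for the latter). With shPcyt2-1 these 3 calls were lost without any 1 library of shNT or shPcyt2-1, at an adjusted p of 0.0584 to 0.167 in limma for ACVR1B, 0.0524 to 0.120 for BMPR1A and 0.0554 to 0.209 for RGMB. With shPcyt2-2 the ACVR1B call was lost without any 1 library of shNT or shPcyt2-2 (adjusted p of 0.0509 to 0.134 in limma) and the BMPR1A call without any 1 of the 6 (adjusted p of 0.0645 to 0.188 in limma). TGFBR3, a coreceptor that presents TGF-beta to TGFBR2, was at 0.429 and 0.419 FPKM with shNT, 0.360 and 0.344 FPKM with shPcyt2-1, and 1.86 and 1.52 FPKM with shPcyt2-2, with both shPcyt2-2 libraries above the other 4. Its means with shNT and shPcyt2-1 were under the limit of 0.5 FPKM, and its log2 fold change was 0.91 with shPcyt2-2 and -0.075 with shPcyt2-1.

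Target genes of TGF-beta moved in both directions with shPcyt2-1, where 5 of 20 rose and 4 fell, against 16.5% and 10.1% of all tested genes. BHLHE40, a transcriptional repressor, was at 29.6 and 27.6 FPKM with shNT, 18.8 and 21.4 FPKM with shPcyt2-1, and 32.6 and 32.6 FPKM with shPcyt2-2, lowest in the shPcyt2-1 libraries, and fell by 0.49 with shPcyt2-1 (adjusted p = 0.00389 in limma). CCN2, a matricellular protein gene that YAP1 also controls, was at 1.65 and 1.46 FPKM with shNT, 3.91 and 3.29 FPKM with shPcyt2-1, and 2.18 and 1.76 FPKM with shPcyt2-2 and rose with shPcyt2-1 (0.85, adjusted p = 0.00238 in limma). Both calls held under all 16 alternatives. JUNB, a subunit of AP-1 and abundant, was at 62.9 and 69.0 FPKM with shNT, 49.1 and 56.98 FPKM with shPcyt2-1, and 51.7 and 66.1 FPKM with shPcyt2-2, with a log2 fold change of -0.31 for shPcyt2-1 (adjusted p = 0.0759 in limma) and -0.17 for shPcyt2-2 (adjusted p = 0.345 in limma). Others called with shPcyt2-1, outside the rule for named genes and listed after their values were seen, were FN1, HMGA2, KLF10 and PTHLH among those that rose and ANGPTL4 among those that fell, beside LTBP2. With shPcyt2-2, 5 of 20 rose (KLF10, LTBP2, PMEPA1, TAGLN and TGFBI, of which KLF10, TAGLN and TGFBI were named after their values were seen) and none fell, against 7.69% and 4.74% of all tested genes. LTBP2, which binds to matrix fibrils beside latent TGF-beta, was at 1.39 and 1.57 FPKM with shNT, 0.632 and 0.663 FPKM with shPcyt2-1, and 2.52 and 2.09 FPKM with shPcyt2-2: the groups did not overlap, and it fell with shPcyt2-1 (-0.59, adjusted p = 0.00700 in limma) and rose with shPcyt2-2 (0.41, adjusted p = 0.0445 in limma). The rise was lost without any 1 of the 6 libraries (adjusted p of 0.0546 to 0.186 in limma), and shPcyt2-2 exceeded shPcyt2-1 by 1.00 (adjusted p = 0.000514 in limma). PMEPA1, an inhibitor that retains SMAD2 and SMAD3, rose with shPcyt2-2 (0.44, adjusted p = 0.0163 in limma), lost without either shPcyt2-2 library (adjusted p of 0.0685 to 0.0751 in limma).

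**Figure D4:**
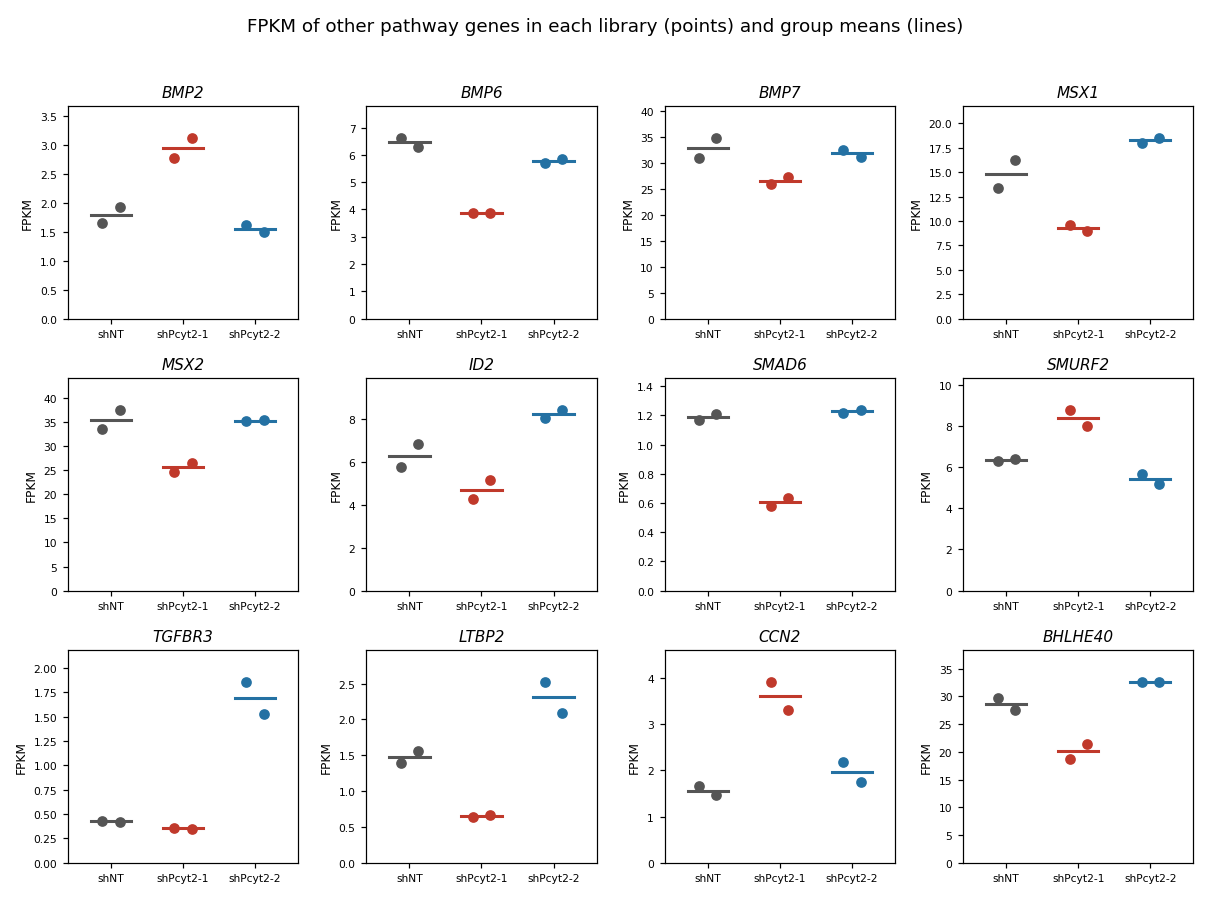
FPKM (vertical axes, each from 0) of 12 other pathway genes in the 6 libraries, by hairpin; points are libraries and lines are means of 2 libraries. In BMP6, MSX1, MSX2, ID2, SMAD6, BHLHE40 and LTBP2 both shPcyt2-1 libraries lie below the other 4, whereas BMP2, CCN2 and SMURF2 are highest there and TGFBR3 is highest in the shPcyt2-2 libraries.

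Of 13 regulators inside the cell, 4 rose with shPcyt2-1 (NEDD4L, SMURF1, SMURF2 and TGIF1, of which NEDD4L was named after its value was seen) and 1 fell (STUB1), so that 38.5% were called against 26.7% of all tested genes, which also rose more often than they fell. With shPcyt2-2, 2 of the 13 rose (PMEPA1 and TGIF1), 15.4% against 12.4% of all tested genes. SMURF2, a ubiquitin ligase that targets receptors and SMADs, was at 6.29 and 6.39 FPKM with shNT, 8.78 and 7.98 FPKM with shPcyt2-1, and 5.65 and 5.17 FPKM with shPcyt2-2, rose with shPcyt2-1 (0.35, adjusted p = 0.0246 in limma) and was lower in shPcyt2-2 than in shPcyt2-1 (-0.55, adjusted p = 0.00336 in limma). TGIF1, a corepressor of SMADs, was at 14.7 and 15.4 FPKM with shNT, 19.9 and 18.6 FPKM with shPcyt2-1, and 18.5 and 18.8 FPKM with shPcyt2-2 and rose with shPcyt2-1 (0.34, adjusted p = 0.0126 in limma) and with shPcyt2-2 (0.29, adjusted p = 0.0365 in limma). SMURF1 rose with shPcyt2-1 (0.41, adjusted p = 0.00973 in limma) and STUB1, another ubiquitin ligase, fell (-0.32, adjusted p = 0.0179 in limma). The SMURF2 rise was lost without any 1 library of shNT or shPcyt2-1 (adjusted p of 0.0626 to 0.205 in limma), the TGIF1 rises without shPcyt2-1 replicate 1 (adjusted p = 0.124 in limma) and, with shPcyt2-2, without any 1 of the 6 (adjusted p of 0.0618 to 0.140 in limma), that of SMURF1 without shPcyt2-1 replicate 1 (adjusted p = 0.0824 in limma), and the fall of STUB1 without shNT replicate 2 or shPcyt2-1 replicate 1 (adjusted p of 0.0691 to 0.106 in limma). Once GC content and length were adjusted for, the calls with shPcyt2-1 ended for STUB1 (-0.11, adjusted p = 0.125 in limma), SMURF2 (0.22, adjusted p = 0.0740 in limma) and TGIF1 (0.21, adjusted p = 0.0731 in limma), and that of TGIF1 with shPcyt2-2 ended too (0.19, adjusted p = 0.140 in limma). STRAP, which stabilizes the receptor and SMAD7 complex, was the most abundant of the 13, with -0.064 for shPcyt2-1 (adjusted p = 0.452 in limma) and 0.11 for shPcyt2-2 (adjusted p = 0.237 in limma).

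Among the other SMADs, SMAD1, a transducer of the BMP branch, was at 4.93 and 3.92 FPKM with shNT, 5.95 and 5.93 FPKM with shPcyt2-1, and 4.86 and 4.69 FPKM with shPcyt2-2, and rose with shPcyt2-1 (0.36, adjusted p = 0.0395 in limma), a call kept in 6 of 16 alternatives and lost without any 1 library except shNT replicate 1 (adjusted p of 0.0508 to 0.212 in limma) or once GC content and length were adjusted for (0.22, adjusted p = 0.0775 in limma). SMAD5, which acts beside it, was at 8.56 and 7.26 FPKM with shNT, 8.19 and 7.59 FPKM with shPcyt2-1, and 11.3 and 9.25 FPKM with shPcyt2-2 and was not called with shPcyt2-1 (-0.00081, adjusted p = 0.997 in limma) or shPcyt2-2 (0.34, adjusted p = 0.0850 in limma). Of 4 tested antagonists and decoys, FSTL3, which binds activins, was at 40.8 and 44.97 FPKM with shNT, 29.02 and 32.4 FPKM with shPcyt2-1, and 41.3 and 44.3 FPKM with shPcyt2-2 and fell by 0.47 with shPcyt2-1 (adjusted p = 0.00480 in limma), under all 16 alternatives. BAMBI, a decoy receptor, was abundant at 98.04 and 105 FPKM with shNT, 82.2 and 91.8 FPKM with shPcyt2-1, and 103 and 96.3 FPKM with shPcyt2-2, with -0.22 for shPcyt2-1 (adjusted p = 0.0530 in limma). NBL1, a BMP antagonist, was at 52.5 and 56.6 FPKM with shNT, 46.7 and 48.4 FPKM with shPcyt2-1, and 44.4 and 44.8 FPKM with shPcyt2-2, with each of the 4 knockdown libraries lower than either shNT library. Its log2 fold change was -0.19 with shPcyt2-1 (adjusted p = 0.0569 in limma), called in 4 of 16 alternatives and turning to 0.018 once GC content and length were adjusted for, and -0.091 between the hairpins (adjusted p = 0.336 in limma). With shPcyt2-2 it fell (-0.28, adjusted p = 0.0266 in limma), lost without shNT replicate 2 or either shPcyt2-2 library (adjusted p of 0.0801 to 0.139 in limma) or once GC content and length were adjusted for (-0.13, adjusted p = 0.126 in limma). For storage and activation of latent TGF-beta, ITGAV, an integrin subunit, rose with shPcyt2-1 (0.37, adjusted p = 0.0447 in limma), lost without any 1 library of shNT or shPcyt2-1 (adjusted p of 0.0720 to 0.224 in limma) or once GC content and length were adjusted for (0.23, adjusted p = 0.0942 in limma). LTBP4 and LTBP3, which anchor the latent ligand in the matrix, were the most abundant of the 7 tested in that list, and neither was called against shNT. LTBP4 was at 92.4 and 103 FPKM with shNT, 81.9 and 86.6 FPKM with shPcyt2-1, and 110.1 and 101 FPKM with shPcyt2-2. LTBP3 was at 71.1 and 85.5 FPKM with shNT, 71.4 and 72.7 FPKM with shPcyt2-1, and 75.1 and 68.02 FPKM with shPcyt2-2, so that its groups overlapped.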

How the data were processed

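The 6 libraries were grouped by the treatment label. The authors deposited 1 table per library with Ensembl identifiers and a value read here as FPKM, since the values are not whole and sum to 396467 to 402612 per library, and TPM over part of the genes cannot be told apart from it. The aligner, annotation and strand setting are not given in the sources used here, and the submitters' processing notes name the builds GRCh38, GRCm38 and mm10 without a role. More than 1 library kit is named in the labels, with no link to single libraries. A gene missing from the table of a library was taken as 0. Of 21539 identifiers, 115 repeated within a library were summed and 999 groups of identical identifiers (with at least 3 libraries above 0) merged. Names and positions came from GENCODE 29, promoters from RefSeq (GRCh38.p14).

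Genes with a mean of at least 0.5 FPKM were tested by limma 3.58.1 under R 4.3.3 (log2(FPKM + 1), 3 group means, variance trended on the mean), with Benjamini-Hochberg adjustment over 12756 genes. The pooled comparison used 2 group means. The methods name a count-based package, which needs counts, so limma took its place. Results for some genes of the lists are not reported here, though list counts and sums include them. Members and lists were chosen with earlier results of these data known. Named genes are the target, the members, SMAD1, SMAD4 and SMAD5, and of each list up to 4 called genes with the largest change and up to 2 with the highest mean, besides the 5 genes most like the member with the widest gap between group means. With 2 libraries a group, their number limits the precision. Alternatives were a pseudocount of 0.1, no expression limit or one of 1 FPKM, the replicate number as a block, median-ratio and quantile scaling, no variance trend, the highest of repeated rows, a per-library trend over GC content and length subtracted (5 degrees of freedom per spline, for the 99.87% of tested genes with both values), each library left out and, for the grouping, the libraries of a comparison alone. Figures were drawn with matplotlib 3.10.9.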

Additional observations from a re-analysis of the deposited data

Results flagged for a closer look

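Over the 4 knockdown libraries, 1 library stood far from the other 3 for TGFBR1, where shPcyt2-2 replicate 1 at 6.004 FPKM left a gap of 0.923 of the range, and for RGMB, where shPcyt2-1 replicate 2 at 7.14 FPKM left a gap of 0.862. Of 44 groups examined, 2 were marked. A chance rate of about 1 in 20 holds only for 4 libraries from a single population, and these came from both hairpins. Where the hairpins differ, a library apart from the other 3 is less easily marked, so the count cannot be compared with chance.

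Leaving out INHBA and TGFBR3, which are described below without a test, the hairpins differed at an adjusted p under 0.05 in limma for the following named genes. On the log2 scale, shPcyt2-2 minus shPcyt2-1, the members among them were TGFB1 (0.26), TGFBR2 (-0.78) and SMAD3 (0.35). The ligands were BMP2 (-0.63), BMP6 (0.47), BMP8A (0.57) and BMP7 (0.25), of which the calls of BMP8A and BMP7 were each lost when some single library was left out. The inhibitory SMAD6 was at 0.47, and the antagonists FSTL3 and TWSG1 at 0.47 and 0.41, where TWSG1 was lost without either shPcyt2-1 library or shPcyt2-2 replicate 1 (adjusted p of 0.0802 to 0.140 in limma). Among matrix and regulatory genes LTBP2 was at 1.00, LTBP4 at 0.32 (lost without shPcyt2-1 replicate 1 or shPcyt2-2 replicate 1, adjusted p of 0.0838 to 0.0897 in limma), SMURF2 at -0.55 and PMEPA1 at 0.52. INHBA and the coreceptor TGFBR3 passed the limit of 0.5 FPKM only through the group in which they were high, so their values, -0.75 and 0.99, are a description. The target genes were MSX1 (0.91), ID2 (0.70), MSX2 (0.45), CCN2 (-0.63) and BHLHE40 (0.67).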

How the results depend on the processing

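Of 10 members and 16 alternatives, 141 of 160 values with shPcyt2-1, 131 with shPcyt2-2 and 144 between the hairpins kept their direction and their side of the threshold. The 3 members called with shPcyt2-1 became 1 (TGFBR2) without an expression limit (9.27% of all genes called) or without a variance trend (23.1%), and 1 to 4 with a library left out (1 without shNT replicate 2 or shPcyt2-1 replicate 1). Without the limit 18 of the other pathway genes were called in place of 30, and 11 to 30 with a library left out (11 without shPcyt2-1 replicate 1, 15 without shNT replicate 2, 17 without shPcyt2-1 replicate 2). The 2 members called with shPcyt2-2 became 1 with a pseudocount of 0.1, the replicate block or quantile normalization, 0 without the limit (0.628% of all genes called), without a variance trend (8.05%), with GC content and length adjusted for (12.3%) or with the libraries of that comparison alone (10.2%), and 0 to 3 with a library left out (0 without shNT replicate 2, either shPcyt2-1 library or shPcyt2-2 replicate 1, and 1 without shPcyt2-2 replicate 2). The other pathway genes called there went from 10 to 2 without the limit, 16 with GC content and length adjusted for, and 2 to 7 with a library left out (2 without shPcyt2-2 replicate 1, 3 without shPcyt2-2 replicate 2, 4 without shNT replicate 2). Between the hairpins the left-out fits gave 1 to 4 members (1 without shPcyt2-1 replicate 1 or shPcyt2-2 replicate 1) and 15 to 26 other genes (15 without shPcyt2-1 replicate 1). Pooled, the mean of the hairpins from the fit with 3 groups called 2 members and 17 others, in place of 0, and 16.8% of all tested genes. With GC content and length adjusted for the sign turned for SKIL (-0.040) and ID1 (0.061) with shPcyt2-1, for TGFB1 (0.13) with shPcyt2-2, and pooled for TGFB1 (0.029), SMAD2 (-0.022) and SMAD7 (0.026). Quantile normalization turned TGFB1 (0.016) and SMAD7 (-0.034) with shPcyt2-2. A left-out library turned TGFB1 (from -0.033 to 0.027) and SMAD7 (from -0.015 to 0.11) with shPcyt2-2, TGFBR1 (from -0.028 to 0.38) and BMP4 (from -0.059 to 0.061) between the hairpins, and pooled SMAD2 (from -0.017 to 0.16) and SMAD7 (from -0.14 to 0.012). The cause was not tested. For same-numbered libraries the correlation of deviations from the group means was 0.0027, 0.062 and 0.19 over 12756 genes. The replicate block gave 4, 1, 4 and 0 members called with shPcyt2-1, shPcyt2-2, between the hairpins and pooled. With the block, 30.4%, 15.9%, 30.3% and 0% of all tested genes were called, against 26.7%, 12.4%, 27.1% and 0.00784% without it. Whether same-numbered libraries shared a batch is not given by the labels and was not tested. FPKM carries no read depth, so noise from counting could not be separated from the spread between libraries.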
